A study of Bos taurus with 18 samples.

Results

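The genes described here are 41 histone and chromatin modifying enzymes and their partners in the bovine blastocyst. They were taken by symbol from a list of writers, erasers, readers and remodellers of chromatin. The list was chosen with earlier results of these data known. Shares of the set given beside those of all features are therefore descriptive and no independent test. Of these, 37 were paired with a probe in the array's gene table, and all 37 were among the 14543 genes tested. KDM4A, KDM6B, EP300 and KAT2A are not analysed here. The 37 genes had 56 probes, of which 55 were kept. The remaining probe, of SUZ12, was too dim.

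RNA of whole blastocysts was hybridised to 18 one-colour Agilent arrays in 6 groups of 3, after amplification in 2 rounds. Blastocysts of the groups day6+1 and day6+2 had formed their cavity on day 6 after fertilisation and then stayed 1 or 2 days longer in culture, and those of day7+1 had formed it on day 7 and stayed 1 day longer. Blastocysts of day6, day7 and day8 were collected on the day the cavity formed, so that day6+2, day7+1 and day8 are of one age and differ in when they became blastocysts. All embryos were produced in vitro and cultured under 5% O2. For day6+2, day8 and day6 the labels add oocytes of slaughterhouse cows, frozen semen of 1 bull and co-culture on VERO cells, a monkey kidney line. Arrays are labelled biological replicates, but neither the number of embryos per array nor separate cultures are given. The p-values then cover only the spread between these arrays, which may be technical.

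Chromatin enzymes mark histone tails and move nucleosomes, and thereby set which genes are open to transcription. In mammals, Polycomb complex 2 (EZH2, EED, SUZ12) methylates lysine 27 of histone H3, SETDB1 and the SUV39H and EHMT enzymes methylate lysine 9, and HP1 proteins (CBX1, CBX3, CBX5) bind methylated lysine 9. Deacetylases of the HDAC and sirtuin families remove acetyl groups that acetyltransferases such as CREBBP add. In the blastocyst these marks are laid down anew while the trophectoderm, the future placenta, separates from the inner cell mass.

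Values are normalised log2 intensities, and a difference is the mean of the first-named group minus that of the second, ± the standard error of the fit over all arrays. Each gene is read from its brightest probe, and probe brightness does not rank genes by transcript amount. A gene passed where limma's p, Benjamini-Hochberg adjusted over 34265 features, was under 0.05. The arrays had median signals of 143 to 281 intensity units with local backgrounds of 14 to 21, and correlated at 0.952 to 0.982 with each other. All 3 day8 arrays, day6+1 replicate 1 and day7 replicate 1 stood apart from the rest on the first principal component, which held 19% of the variance. Leaving out day6+1 replicate 1 and day7 replicate 1 kept the 5 calls described next.

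Of the 37 genes, 5 fell in day6+2 against day6, the comparison of 2 extra days in culture after the cavity formed. They were EZH2, the catalytic subunit of Polycomb complex 2, SETDB1 and SUV39H1, both methyltransferases of lysine 9 of histone H3, and the deacetylases HDAC6 and HDAC8. Their folds ran from 1.61 to 2.01, and none of the 37 rose. Over all features, 1.27% fell and 2.3% rose in this comparison, 3.57% in all. The median difference of the 37 genes was -0.20, against -0.018 over all features, and 27 of the 37 had a negative difference. At an unadjusted p under 0.05 there were 9 genes (24.3%, against 13.1% of features), the 5 named and KDM5B, SIRT1, CBX5 and CREBBP, all lower in day6+2. Since whole embryos were measured, fewer cells of a type and less RNA per cell cannot be told apart.

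**Figure D1:**
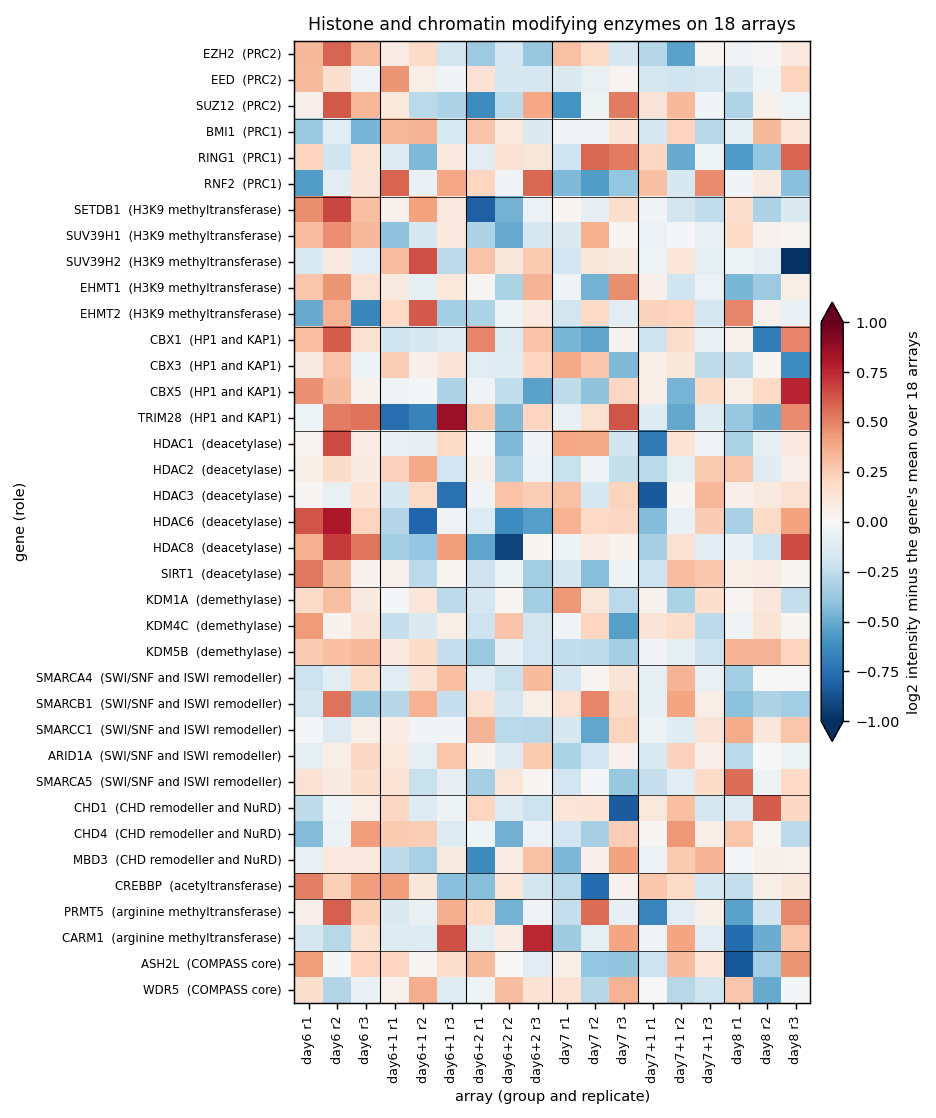
Normalised log2 intensity of each of the 37 genes on each of the 18 arrays, shown as the difference from that gene's mean over all arrays, with genes ordered by role and arrays by group. The day6 columns are the highest of the 6 groups on average for 16 of the 37 genes (43.2%, against 22.2% of all features).

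SETDB1, the enzyme that TRIM28 brings to retroviral elements and imprinted regions in mouse embryos, had 8.84, 9.19 and 9.60 in day6+2, against 10.12, 10.32 and 9.96 in day6. All 3 day6+2 arrays lay below all 3 day6 arrays. The difference was -0.93 ± 0.20 (SE, n = 3 arrays each), a 1.9-fold lower level with an adjusted p of 0.00829 in limma. Its values were 9.70, 10.06 and 9.75 in day6+1. Later formed blastocysts had 9.68, 9.58 and 9.83 in day7, 9.63, 9.48 and 9.41 in day7+1, and 9.83, 9.35 and 9.51 in day8. Every later group therefore had a lower mean than day6, and the spread within day6+2 was the widest of the 6. The gene had a single probe.

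SUV39H1, which adds the trimethyl mark of constitutive heterochromatin, had 8.58, 8.38 and 8.72 in day6+2, against 9.20, 9.35 and 9.21 in day6. The groups did not overlap, and the gap between them was wider than the range within either group. The difference was -0.69 ± 0.18 (SE, n = 3 each; adjusted p = 0.0296 in limma), a fold of 1.61. It had 8.49, 8.73 and 8.99 in day6+1, also below every day6 array. In day7 it had 8.74, 9.24 and 8.91, in day7+1 8.83, 8.88 and 8.82, and in day8 9.07, 8.93 and 8.92. The day8 arrays stood above all day6+2 arrays of the same age, by 0.41 ± 0.18, but the adjusted p was 0.393. This gene too had a single probe.

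EZH2 had 11.10, 11.29 and 11.08 in day6+2, against 11.79, 12.05 and 11.77 in day6. Its difference was -0.71 ± 0.19 (SE, n = 3 each; adjusted p = 0.0325 in limma), a fold of 1.64, with no overlap. It had 11.55, 11.65 and 11.28 in day6+1, below every day6 array and overlapping day6+2. Values were 11.76, 11.66 and 11.30 in day7, 11.18, 10.93 and 11.49 in day7+1, and 11.43, 11.47 and 11.56 in day8. All day8 arrays lay above all day6+2 arrays, by 0.33. A dimmer second probe of EZH2, above background on 15 of 18 arrays, differed by -0.10 between day6+2 and day6, and by -0.006 between day8 and day6+2. With the mean of both probes the difference between day6+2 and day6 was -0.41 (adjusted p = 0.321).

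HDAC6, a mainly cytoplasmic deacetylase of tubulin, had 9.24, 8.75 and 8.82 in day6+2, against 10.00, 10.19 and 9.60 in day6. The groups did not overlap, and the difference was -0.99 ± 0.24 (SE, n = 3 each; adjusted p = 0.0187 in limma), a fold of 1.99. It was almost as low after 1 extra day, with 9.08, 8.58 and 9.34 in day6+1, a difference from day6 of -0.93 ± 0.24 that missed the threshold (adjusted p = 0.0589). It had 9.73, 9.57 and 9.58 in day7, 8.94, 9.31 and 9.63 in day7+1, and 9.05, 9.56 and 9.78 in day8. The day7+1 and day7 arrays overlapped.

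HDAC8, a class I deacetylase that acts on the cohesin subunit SMC3 in human cells, had 9.90, 9.50 and 10.45 in day6+2, against 10.78, 11.13 and 10.96 in day6. Its difference of -1.01 ± 0.26 (SE, n = 3 each; adjusted p = 0.0304 in limma) was a fold of 2.01. Replicate 3 of day6+2 was the highest of its group and still below every day6 array. It had 10.08, 10.04 and 10.85 in day6+1, 10.38, 10.50 and 10.46 in day7, 10.09, 10.58 and 10.32 in day7+1, and 10.36, 10.21 and 11.08 in day8. In day6+1 and in day8, 1 array each reached into the day6 range while the other two stayed below it.

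**Figure D2:**
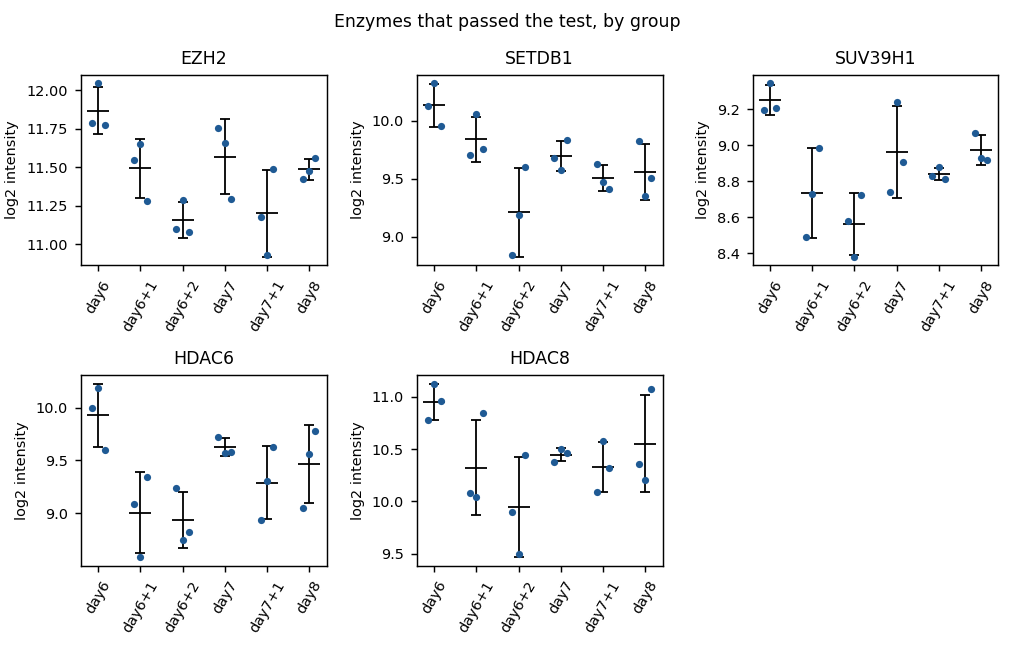
Normalised log2 intensity of EZH2, SETDB1, SUV39H1, HDAC6 and HDAC8 on every array by group, with points for arrays, horizontal lines for group means and bars for the SD (n = 3 each). In each panel the day6+2 points lie below all day6 points.

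Fitted as a trend over all 18 arrays, with the formation day in the same model, the same 5 genes fell per day of extra culture. SETDB1 fell by 0.41 ± 0.09 per day (adjusted p = 0.00745 in limma over 18 arrays) and EZH2 by 0.36 ± 0.08 (adjusted p = 0.00822). HDAC6 fell by 0.46 ± 0.11 per day (adjusted p = 0.0168). SUV39H1 fell by 0.30 ± 0.08 (adjusted p = 0.0273) and HDAC8 by 0.43 ± 0.12 (adjusted p = 0.0364). Of all features, 1.33% fell and 3.75% passed in either direction in this trend. It holds the day6+2 and day6 arrays of the comparison before it, so the 2 results are not independent. Per day of later formation, none of the 37 passed, against 0.251% of features, and 3 had an unadjusted p under 0.05 (SETDB1, EZH2 and EHMT1, all negative), 8.11% against 11.3% of features.

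The calls were sensitive to single arrays and to scaling. Without day6 replicate 2, none of the 37 passed in day6+2 against day6, and without any other array of these groups 1 to 3 did. In the trend, EZH2 and SETDB1 passed with any single array left out. With each array centred on its median in place of quantile normalization, none passed in day6+2 against day6 and only HDAC6 passed in the trend, while the 5 differences ran from -0.53 to -0.82, all still negative. Slide 1 held replicates 1 and 2 of both day6+2 and day6. Within it the differences were -0.72 for EZH2, -1.21 for SETDB1, -0.79 for SUV39H1, -1.10 for HDAC6 and -1.26 for HDAC8. Within slide 4, which held replicate 3 of both, they were -0.69, -0.35, -0.49, -0.78 and -0.51 in the same order.

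SUV39H1, HDAC6 and HDAC8 are the 3 genes of the set that lie on the X chromosome in the ARS-UCD2.0 annotation, a position looked up after their values were seen. All 3 X-linked genes passed, beside 2 of the 34 elsewhere, EZH2 on chromosome 4 and SETDB1 on chromosome 3. Among all X-linked genes tested, 15 of 537 fell (2.79%) and 11 rose (2.05%), against 240 of 13878 (1.73%) and 491 (3.54%) on other chromosomes. SUV39H1 and HDAC6 have 3 annotated protein-coding genes between them. GATA1, the 1 of these that was tested, differed by 0.015 ± 0.21 (adjusted p = 0.993). HDAC8 lies 86 genes from HDAC6. XIST, the RNA that coats the inactive X, had 8.77, 8.47 and 9.44 in day6+2, against 8.37, 9.27 and 9.78 in day6 (-0.25 ± 0.34, adjusted p = 0.874), and its groups overlapped. In day8 XIST had 9.65, 9.84 and 9.72, above every array of day6+2, day7 and day7+1 but overlapping day6. None of these day8 differences passed. None of the 4 Y-linked genes tested passed. EIF1AY had 7.75, 7.39 and 7.16 in day6+2, against 6.68, 7.15 and 6.79 in day6, without overlap (0.56 ± 0.27, adjusted p = 0.387). DDX3Y differed by 0.18 ± 0.23 (adjusted p = 0.862), ZFY by 0.16 ± 0.21 (adjusted p = 0.864) and SRY by -0.08 ± 0.23 (adjusted p = 0.958), with overlapping arrays. In day6, EIF1AY was above background on 1 of 3 arrays and ZFY on 0. In day6+2, EIF1AY was above background on 3 arrays and ZFY on 2, so both were read near background. The part of embryo sex in the result was not tested.

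Cell type markers also moved between these groups. All 6 trophectoderm markers were above background in every group. Their summed level was 17.23 to 17.43 in day6+2, against 16.52 to 16.80 in day6 (log2). Intensities were summed before taking log2, so bright markers weigh most. IFNT rose by 3.56 ± 0.42 (adjusted p = 3.62e-05 in limma), TFAP2A by 2.80 (adjusted p = 2.75e-05) and CDX2 by 0.92 (adjusted p = 0.0112). KRT18 differed by 0.58 (adjusted p = 0.0945), GATA3 by 0.30 (adjusted p = 0.755) and KRT8 by -0.001, none past the threshold. KRT8 had a mean of 15.93 in both groups, and KRT18 had 15.75 in day6+2. These values lie near the upper limit of the scanner, so a rise in them, or in the trophectoderm sum, may be understated. The sum of the 4 epiblast markers was 13.75 to 14.03 in day6+2 and 14.16 to 14.32 in day6, but the markers in it went both ways. NANOG rose by 2.51 ± 0.35 (adjusted p = 0.000207 in limma), POU5F1 fell by 1.09 ± 0.26 (adjusted p = 0.016) and DPPA3 fell by 1.31 ± 0.25 (adjusted p = 0.0025), while SOX2 differed by -0.34 ± 0.21 (adjusted p = 0.567). The sum of the 3 hypoblast markers tested of 4 was 12.38 to 12.96 in day6+2 and 12.85 to 13.31 in day6. Of these, PDGFRA passed at -0.90 ± 0.22 (adjusted p = 0.0186 in limma). GATA4 differed by 0.075 (adjusted p = 0.987) and SOX17 by -0.23 (adjusted p = 0.809). Of the cumulus and granulosa list, 5 of 7 markers were tested, with sums of 10.06 to 10.22 in day6+2 and 9.97 to 10.12 in day6. Of the fibroblast and kidney epithelial list, 9 of 10 markers were tested, and they summed to 11.83 to 12.22 in day6+2 and 11.52 to 11.83 in day6. Markers above background on all arrays of the group numbered 5 in day6+2 and 2 in day6 for the cumulus list, and 6 in day6+2 and 7 in day6 for the fibroblast and kidney list. The part of cell composition in the chromatin genes' differences was not tested.

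Among the 37, no other Polycomb subunit passed, while JARID2, an accessory subunit of Polycomb complex 2 on the second gene list described further on, fell by 1.27 in day6+2 against day6. Of the core of that complex, EED, which binds the trimethyl mark, differed by -0.21 ± 0.18 between day6+2 and day6 (adjusted p = 0.737), and SUZ12, its scaffold, by -0.50 ± 0.26 (adjusted p = 0.449). SUZ12 had 11.26, 11.62 and 12.27 in day6+2, against 11.94, 12.50 and 12.22 in day6, overlapping through replicate 3, and its dimmer probes differed by 0.25 and -0.08. Of Polycomb complex 1, which ubiquitinates histone H2A, RNF2, its main ligase, was at 10.79, 10.55 and 11.15 in day6+2, against 10.02, 10.47 and 10.71 in day6. RNF2 had the most positive difference of all 37 genes in this comparison, 0.43 ± 0.23, with an adjusted p of 0.46. In day7+1 it had 10.88, 10.41 and 11.05, above all day7 arrays at 10.14, 10.02 and 10.19, a difference of 0.67 ± 0.23 (adjusted p = 0.518). RING1, the paralog of RNF2, differed by -0.006 ± 0.27 between day6+2 and day6. BMI1 was above background on only 5 of 18 arrays, and on none in day6 or day7, so no fold is given.

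Of the other lysine 9 methyltransferases, SUV39H2, the paralog of SUV39H1, lay the other way from it on its brightest probe. It had 9.02, 8.85 and 8.99 in day6+2, against 8.58, 8.82 and 8.63 in day6, without overlap but with a difference of 0.28 ± 0.24 (adjusted p = 0.743). A dimmer second probe of SUV39H2, above background on 17 of 18 arrays, differed by -0.02. The difference of SUV39H1 and that of SUV39H2 were not tested against each other. EHMT1, which makes the dimethyl mark together with EHMT2, differed by -0.28 in day6+2 against day6 and by -0.55 ± 0.22 in day8 against day6 (adjusted p = 0.264). EHMT2 was above background on 14 of 18 arrays and gave no call. Among the readers of the mark, CBX5 had 9.71, 9.50 and 9.21 in day6+2, against 10.20, 10.06 and 9.78 in day6, all lower. Its difference was -0.54 ± 0.23 with an adjusted p of 0.272, and its second probe differed by -0.07. CBX1, CBX3 and TRIM28, the corepressor that recruits SETDB1, differed by -0.14, -0.11 and -0.32, with overlapping arrays for each.

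Of the 6 deacetylases, 5 were lower on every day6+2 array than on every day6 array, and their median difference was -0.46. Beside HDAC6 and HDAC8 these were HDAC1, HDAC2 and SIRT1. HDAC1, a catalytic subunit of NuRD and Sin3, had 12.51, 12.07 and 12.47 in day6+2, against 12.53, 13.16 and 12.59 in day6, and HDAC2, its paralog, had 8.64, 8.24 and 8.54 in day6+2, against 8.65, 8.77 and 8.69 in day6. These separations were narrow, and neither passed (HDAC1 -0.41 ± 0.24, adjusted p = 0.511). SIRT1, a deacetylase that needs NAD, had 11.79, 11.94 and 11.65 in day6+2, against 12.52, 12.33 and 12.03 in day6, a difference of -0.50 ± 0.19 (adjusted p = 0.194). Its other probes differed by 0.17 and -0.88, so the probes disagreed in sign. HDAC3 was above background on 5 of 18 arrays only. Over the whole set, 12 of 37 genes (32.4%) were lower without overlap and 1 (2.7%) higher, against 9.09% and 9.03% of all features.

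KDM5B, a demethylase of trimethylated lysine 4 of histone H3, came nearest to the threshold of the genes that missed it in day6+2 against day6. It had 11.50, 11.79 and 11.68 in day6+2, against 12.13, 12.17 and 12.20 in day6, a difference of -0.51 ± 0.16 (adjusted p = 0.0948 in limma, n = 3 each). Its other probes differed by -0.47 and -0.60, and in the authors' deposited table it was past the threshold at -0.51 ± 0.14 (adjusted p = 0.0483). In the other groups it had 11.97, 12.06 and 11.64 in day6+1, 11.63, 11.62 and 11.53 in day7, 11.84, 11.77 and 11.66 in day7+1, and 12.22, 12.22 and 12.10 in day8. On this brightest probe the day8 arrays thus lay at the day6 level and above every array of day6+2, day7 and day7+1. Day8 exceeded day7 by 0.58 ± 0.16 (adjusted p = 0.176) and day6+2 by 0.52 (adjusted p = 0.154), neither past the threshold. Its other probes differed by -0.28 and -0.17 between day8 and day7, against the sign of the brightest. Between day8 and day6 they differed by -0.62 and -0.935, and between day8 and day6+2 by -0.15 and -0.335. The probes thus disagreed on the day8 level. KDM1A, the lysine 4 demethylase of the CoREST complex, differed by -0.36 ± 0.20 between day6+2 and day6, and KDM4C, a lysine 9 demethylase, by -0.24.

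CREBBP, a histone acetyltransferase and coactivator, had 9.43, 9.98 and 9.67 in day6+2, against 10.36, 10.10 and 10.28 in day6 (-0.55 ± 0.23, adjusted p = 0.28). It was lowest in day7, at 9.58, 9.08 and 9.90, -0.72 from day6 (adjusted p = 0.239). Of the ATP-dependent remodellers none passed. SMARCA4, the motor of SWI/SNF, differed by 0.04 between day6+2 and day6, SMARCB1 by 0.02, ARID1A by -0.004 and the ISWI motor SMARCA5 by -0.20, and the median of this role group was -0.004. A second ARID1A probe differed by -0.61, and a second SMARCB1 probe, almost as bright as the first, by -0.425. SMARCC1 was above background on only part of the day6+2 and day7 arrays. CHD1 differed by 0.03, and CHD4 and MBD3 of the NuRD complex by -0.17 and -0.13. The arginine methyltransferases PRMT5 and CARM1 were at -0.40 and 0.34, and ASH2L and WDR5, shared subunits of the lysine 4 methyltransferase complexes, at -0.14 and 0.20. None of these passed.

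**Figure D3:**
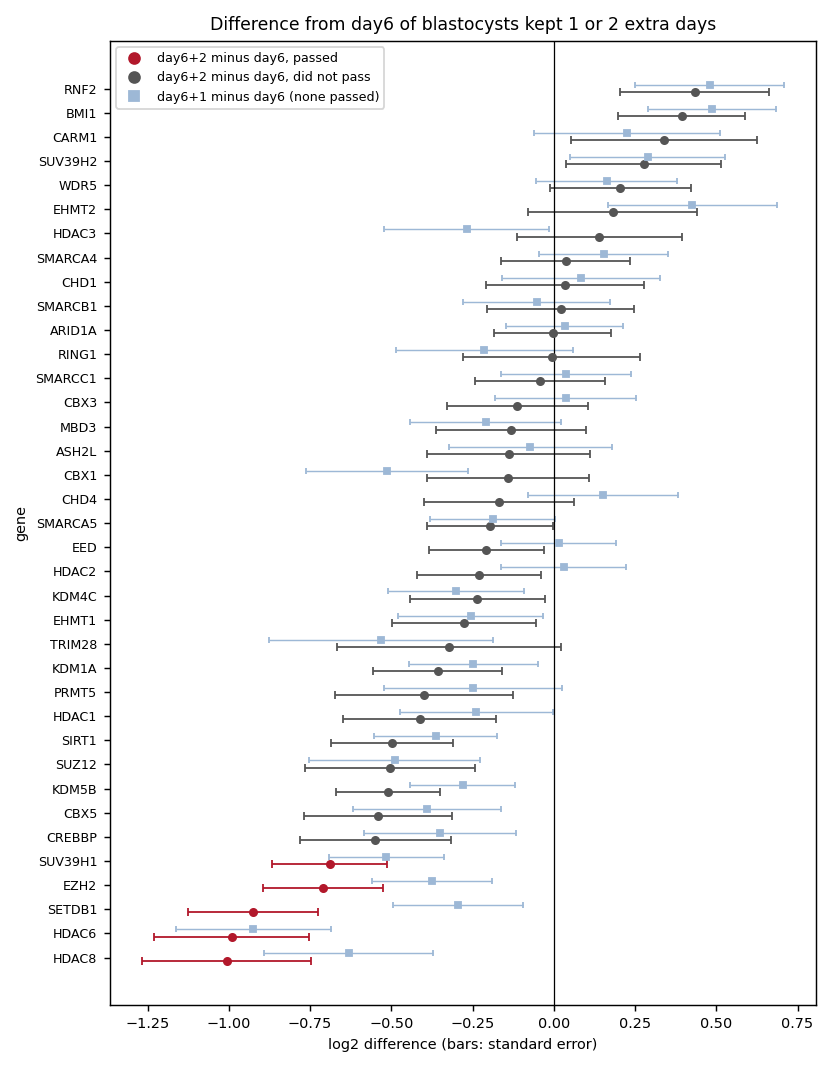
Difference in log2 intensity of each of the 37 genes, day6+2 minus day6 and day6+1 minus day6, with standard errors and genes ordered by the first difference. BMI1 and HDAC3 were near background on most arrays. The 5 genes past the threshold, all in day6+2 minus day6, run from -0.69 to -1.01, and the highest of all is RNF2 at 0.43.

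After 1 extra day, in day6+1 against day6, none of the 37 passed in limma, against 1.24% of features, and 5 had an unadjusted p under 0.05 (13.5%, against 9.85% of features). Of these, HDAC6, SUV39H1 and HDAC8 were lower in day6+1, and BMI1 and RNF2 higher, with BMI1 above background on no day6 array. The median difference was -0.21, against -0.016 over all features, and 7 genes were lower without overlap (18.9%, against 7.86% of features). These were EZH2, SUV39H1, EHMT1, CBX1, CBX5, HDAC6 and KDM5B. Within slide 4, the 1 slide that held both groups, with 1 array of each, the median of the 37 was -0.06 and 25 were lower. TRIM28 differed by 0.31 there, against -0.53 over all arrays. With day6 replicate 3 left out, HDAC6 passed. Between day6+2 and day6+1 none passed, as 0% of features did, and 1 gene, SETDB1, had an unadjusted p under 0.05 (-0.63 ± 0.20, adjusted p = 1), where 3.39% of features had. The comparisons with day6 share its 3 arrays.

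The extra day after formation on day 7 was read in the same way. In day7+1 against day7 none of the 37 passed, against 0.0175% of features, 1 had an unadjusted p under 0.05 (RNF2, 2.7% of the set against 7.11% of features), and the median was 0.06. No slide held both groups. With slide as a fixed block the median was 0.03. EED and TRIM28 were lower and RNF2 and KDM5B higher without overlap, where 4.84% and 5.81% of features were. The test of the difference itself, the extra day after day 7 minus the extra day after day 6, passed for none of the 37 and for 0.00584% of features. At an unadjusted p under 0.05 it held 4 genes (10.8%, against 6.74% of features), SIRT1 (0.70 ± 0.27), CREBBP and CBX1 in the positive direction and BMI1 in the negative one. The brightest SIRT1 probe differed by 0.34 in day7+1 against day7 and by -0.36 in day6+1 against day6. Its other probes differed by -0.21 and 0.03 in the first and by -0.33 and -0.37 in the second. BMI1 was above background on no day6 or day7 array. A different response to the extra day by formation day was therefore not detectable in these genes with 3 arrays a group.

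Among blastocysts collected on the day of formation, none of the 37 passed. In day7 against day6 the median was -0.22, against -0.012 over all features (0.289% of which passed), with 5 genes at an unadjusted p under 0.05 (13.5%, against 9.75% of features). No slide held day6 arrays together with day7 or day8 arrays, so these differences are bound up with slide. With slide as a fixed block, which links the groups through the other 3, the median was -0.20 in day7 against day6 and -0.16 in day8 against day6. Of the 37, 9 (24.3%, against 7.15% of features) were lower without overlap, among them EZH2, SETDB1, SIRT1, KDM5B and CREBBP. CBX1, an HP1 protein, had 8.85, 8.79 and 9.35 in day7, against 9.61, 9.91 and 9.47 in day6 (-0.67 ± 0.25, adjusted p = 0.332). In day8 against day6 the median was -0.23, 1.45% of features passed, and 6 genes (16.2%, against 9.46% of features) were lower without overlap. BMI1 and SMARCC1, both dim, were higher without overlap, 2 of 37 (5.41%, below the 8.08% of features). At an unadjusted p under 0.05 there were 3 genes (8.11%, below the 13% of features), SETDB1 and EHMT1 lower and BMI1 higher. SETDB1 differed by -0.57 ± 0.20 (adjusted p = 0.164). In day8 against day7 the median was 0.01, 0.0175% of features passed, and 4 genes had an unadjusted p under 0.05 (10.8%, against 9.11% of features). SMARCB1, a core SWI/SNF subunit, had 7.79, 7.90 and 7.87 in day8, against 8.36, 8.69 and 8.39 in day7, but the difference of -0.63 ± 0.23 had an adjusted p of 0.344. Its second probe, almost as bright and above background on all 18 arrays, differed by 0.07.

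At one age, blastocysts formed late and early were set side by side. In day8 against day6+2 none of the 37 passed, against 0.566% of features, and 6 had an unadjusted p under 0.05 (16.2%, against 10.5% of features). No slide held both groups, and the median was 0.07, or 0.03 with slide as a fixed block. On the brightest probes, EZH2, SUV39H1, CBX5, SIRT1 and KDM5B were higher without overlap, 5 of 37 (13.5%, against 7.48% of features). Other probes differed by -0.006 for EZH2, 0.12 for CBX5, -1.395 and 0.62 for SIRT1, and -0.15 and -0.335 for KDM5B. SUV39H1 had a single probe. The X-linked SUV39H1, HDAC6 and HDAC8 were all among the 6 genes with an unadjusted p under 0.05. Of all X-linked genes, 14.3% were higher and 6.33% lower without overlap, against 7.42% and 9.19% on other chromosomes. XIST was also higher in day8 without overlap (0.84 ± 0.34, adjusted p = 0.343 in limma). The part of embryo sex here was not tested. This comparison shares the day6+2 arrays with that against day6. CBX5 had 9.81, 9.95 and 10.51 in day8, a difference from day6+2 of 0.62 ± 0.23 (adjusted p = 0.272). SUV39H2 went the other way at -0.61 ± 0.24 (adjusted p = 0.32), with 1 day8 array at 7.71, while its second probe differed by 0.14. In day8 against day7+1 and in day7+1 against day6+2 none of the 37 passed, as 0% of features did, and 2 and 0 genes had an unadjusted p under 0.05, where 8.12% and 4.61% of features had. In day7 against day6+1, of one age, none passed (0% of features), and 2 genes had an unadjusted p under 0.05 (5.41%, against 5.25% of features). They were RNF2 (-0.76 ± 0.23, adjusted p = 0.795) and HDAC6 (0.62 ± 0.24, adjusted p = 0.917).

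**Figure D4:**
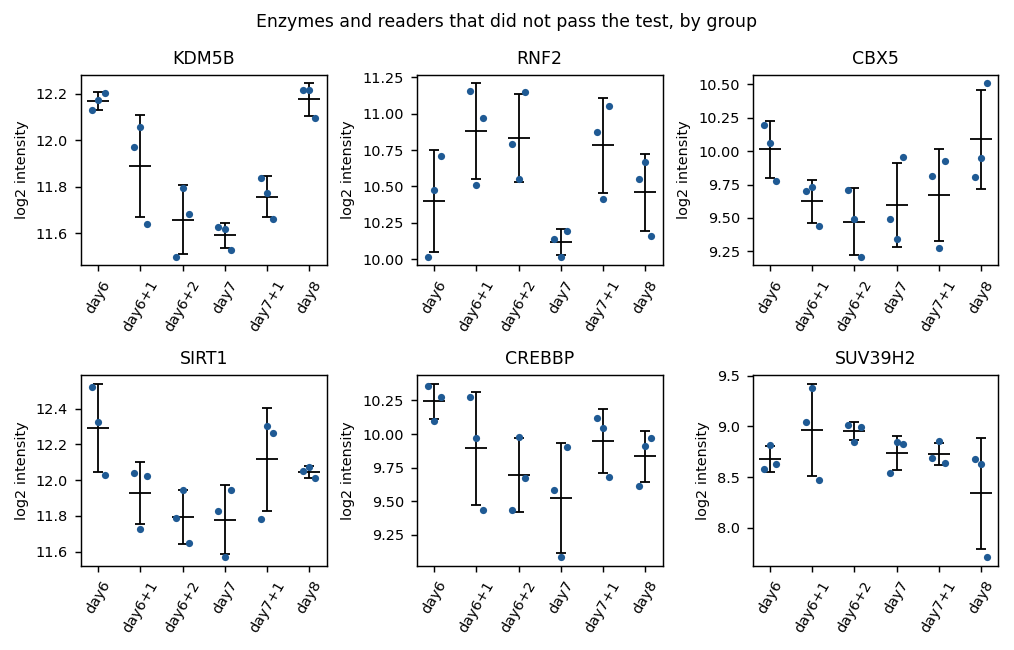
Normalised log2 intensity on every array of genes that did not pass in any comparison, with points for arrays, horizontal lines for group means and bars for the SD (n = 3 each). KDM5B, on its brightest probe, lies between 12.10 and 12.22 in day8 and between 11.50 and 11.79 in day6+2.

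Across the 6 groups, the day6 mean was the highest for 16 of the 37 genes (43.2%, against 22.2% of all features). It was the lowest for 2 (5.41%, against 18.2%). The lowest mean was that of day7 for 11 genes (29.7%, against 16.5% of all features) and of day6+2 for 9 (24.3%, against 17.4%). That of day8 was the lowest for 7 (18.9%), near the 19.9% of all features. The standard deviation between the arrays of a group had a median of 0.29 over the 37 genes (0.12 to 0.51), against 0.27 over all features, so the set was measured about as precisely as the array as a whole.

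Of 166 further chromatin genes on a second list, 136 were tested, and 5 passed in day6+2 against day6 (3.68%, near the 3.57% of all features). JARID2, which guides Polycomb complex 2 to its targets, had 12.43, 12.07 and 12.71 in day6+2, against 13.58, 13.76 and 13.67 in day6 (-1.27 ± 0.21, adjusted p = 0.00088). Its 3 dimmer probes differed by -0.71, -0.06 and -0.25. KDM2A, a demethylase of lysine 36 of histone H3, had 12.12, 11.92 and 12.51 in day6+2, against 13.51, 13.36 and 13.50 in day6 (-1.27 ± 0.25, adjusted p = 0.0034). Both fell without overlap. PCGF2, a Polycomb complex 1 subunit and relative of BMI1, rose to 11.34, 11.66 and 11.93 in day6+2, against 10.55, 9.66 and 11.01 in day6 (1.23 ± 0.28, adjusted p = 0.0122). The day6 arrays were widely spread, and its other probes differed by 0.26 and 0.65. SMYD2, a lysine methyltransferase that also acts on p53 in human cells, rose to 9.76, 9.36 and 9.18 in day6+2, against 8.52, 8.54 and 8.28 in day6 (0.99 ± 0.25, adjusted p = 0.0261), while its second probe differed by -0.12. PRMT2, an arginine methyltransferase, did not rise above background on the day6 arrays. Its day6+2 level was at least 1.62-fold higher (adjusted p = 0.00769), a bound set against the dimmest signal above background.

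The same 5 genes passed in the trend per day of extra culture (3.68%, against 3.75% of features), JARID2 and KDM2A downward and PCGF2, SMYD2 and PRMT2 upward. The median of the 136 genes in day6+2 against day6 was -0.07, against -0.20 for the 37 and -0.018 for all features. RUVBL2, an ATPase of the INO80 and TIP60 complexes, was the 1 gene of the second list past the threshold in day6+1 against day6 (0.735%, against 1.24% of features), with 10.73, 10.31 and 10.56 in day6+1 and 11.30, 11.38 and 11.33 in day6 (-0.80 ± 0.17, adjusted p = 0.0188). In day8 it had 10.38, 10.17 and 10.64 (-0.94 ± 0.17 from day6, adjusted p = 0.00906). SMARCE1, a SWI/SNF subunit, also fell in day8, to 11.90, 11.41 and 11.77, against 13.38, 12.92 and 12.59 in day6 (-1.27 ± 0.28, adjusted p = 0.0236). Its 3 other probes differed by -0.18, -0.11 and 0.27 in that comparison, and with slide as a fixed block neither gene passed (adjusted p = 0.363 each in day8 against day6, and 0.321 for RUVBL2 in day6+1 against day6). With 1 array left out, RUVBL2 passed in day6+1 against day6 in 1 of 6 fits, without day6+1 replicate 1. In day8 against day6 it passed in 3 of 6, not without day6 replicate 2 or day8 replicates 1 or 2, and SMARCE1 passed in 2, without day6 replicate 3 and day8 replicate 3. In day6+2 against day6, JARID2, KDM2A and PRMT2 passed in 6 of 6 such fits. PCGF2 passed in 3, not without day6 replicate 2 or day6+2 replicates 2 or 3, and SMYD2 in 1, without day6+2 replicate 3. In the trend PRMT2 passed in 9 of 18, lost without any day6 or day6+2 array, day7 replicate 3 or day7+1 replicates 2 or 3, and the other 4 in 18. Only slide 4 held both day6+1 and day6 arrays, and no slide held both day8 and day6 arrays.

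**Figure D5:**
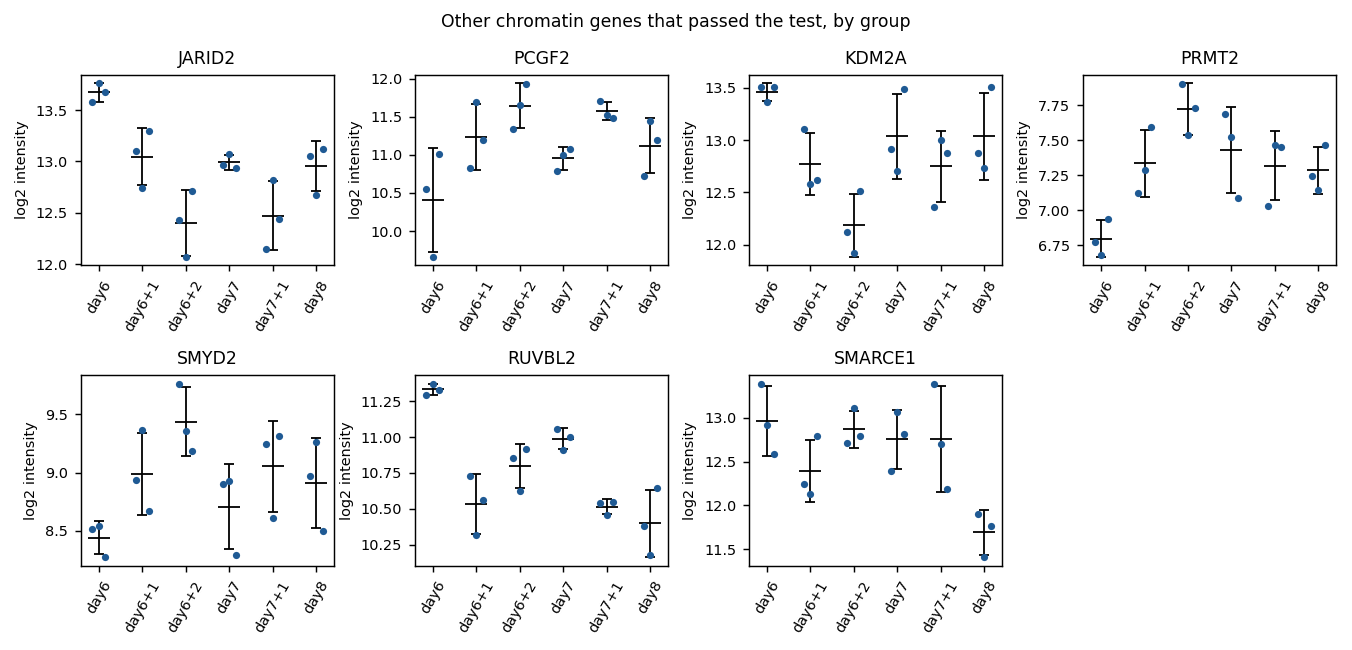
Normalised log2 intensity on every array of the 7 genes of the second chromatin list that passed in a pairwise comparison, with points for arrays, horizontal lines for group means and bars for the SD (n = 3 each). JARID2 and KDM2A lie lower, and PCGF2, SMYD2 and PRMT2 higher, on all day6+2 arrays than on all day6 arrays.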

How the data were processed

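The labels name PicoPure extraction, RiboAmp HSPlus amplification and Cy3 labelling. The scans held, per the file headers, each spot's median foreground and local background as uncorrected intensity. The authors' deposited value table was in log2 units, and matched the log2 of foreground minus background after quantile normalization (Pearson 0.9999 to 1 per array), with column medians of 7.76 to 7.77. The submitters' processing notes name R 3.2.4 and limma 3.28.5 for 9 arrays, and for the other 9 the tools are not given in the sources used here.

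Here the scans were corrected with normexp (offset 50), quantile normalized and taken to log2 in limma 3.58.1 under R 4.3.3. A probe was kept if above the 95th percentile of the negative controls on 3 or more of 18 arrays (39986 of 43794). A gene's brightest probe was used. Pairwise differences and the interaction came from 1 model with 6 group means, and the trends from a model with formation day and extra days as numbers. On simulated data for day6+2 against day6 (34265 features, 200 changed), 59% of changes of size 1 and 97% of size 2 (log2) were recovered, with 12 unchanged features called. In the real comparison 1223 features passed, so recovery there may differ. Sizes under 1, such as those of EZH2 and SUV39H1, were not simulated. Precision is limited by the number of arrays.

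The members and lists were chosen with earlier results of these data known. Members past the threshold were named with all values, other members by the smallest p of their role or as values and ranges, and up to 5 genes of the second list per comparison by the smallest p past the threshold. GATA1, SUV39H2 and the differences of other members given in passing, were chosen after their values were seen. Slides were known from file names only. Equal replicate numbers deviated together by over 0.1 in all 3 pairs in day6+2 against day6+1 (r = 0.171, 0.113 and 0.234) and day7 against day6+1 (0.447, 0.104 and 0.234), and no member passed there with or without the replicate block. Alternatives were another background correction and scaling, median centring, no filter, a mean over probes, the authors' table, slide and replicate blocks, fewer arrays and leaving out each array.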

Additional observations from a re-analysis of the deposited data

How the results depend on the processing

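Under the alternatives run, none of the differences and trends of the 5 genes that passed, or of the 7 of the second list, changed sign. The count of 5 in day6+2 against day6 became 3 with background subtraction scaled to the 75th percentile, with only the 6 arrays compared, and with only the slide 1 arrays (SETDB1, HDAC6 and HDAC8 each time), and 0 with median centring of each array. Scaling to the 75th percentile moved the median of all features by -0.10. The 5 in the trend per day of extra culture became 1 with median centring. Without the filter, with slide as a fixed or random block and without day6+1 replicate 1 and day7 replicate 1 the count in day6+2 against day6 was 5, 4 with a mean over probes, and 6 in the authors' deposited values. With the replicate block it was also 5, and 5 in the trend and 0 in each other comparison, so the block changed no count. Leaving out 1 array at a time gave 0 to 3 genes in day6+2 against day6, 2 to 5 in the trend, 0 to 1 in day6+1 against day6 and 0 to 0 elsewhere. In day6+2 against day6, EZH2 passed in 0 of 6 such fits, SETDB1 in 4 (not without day6 replicate 2 or day6+2 replicate 1), HDAC6 in 2 (without day6 replicate 3 and day6+2 replicate 1), and SUV39H1 and HDAC8 in 1 each (without day6+2 replicate 3). In the trend EZH2 and SETDB1 passed in all 18, HDAC6 in 15, SUV39H1 in 13 and HDAC8 in 12. Among the second list, an alternative chosen after seeing the data, a mean over probes left JARID2 at an adjusted p of 0.0567, PCGF2 at 0.0566, SMYD2 at 0.272 and SMARCE1 at 0.117, and the 75th percentile scaling left PRMT2 at 0.109. Median centring left RUVBL2 at 0.238 in day6+1 against day6 and 0.0807 in day8 against day6. The causes were not tested. Dim probes limit BMI1, HDAC3, EHMT2 and SMARCC1, whose values near background carry no fold.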

Other observations

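Different probes of a gene disagreed for several members. For SIRT1 in day8 against day7, 1 probe differed by -1.51 and the brightest by 0.27. For ARID1A in day6+2 against day6, the probes differed by -0.004 and -0.61, and for CBX3 by -0.11 and -0.59. Which transcript forms these probes match was not tested.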
